A study of Homo sapiens with 6 samples.

Results

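Clade B serpins are a family of protease inhibitors that mostly stay inside the cell, and 9 of their genes are described here in the human keratinocyte line HaCaT, which is immortalised: SERPINB1, SERPINB3, SERPINB4, SERPINB5, SERPINB6, SERPINB7, SERPINB8, SERPINB9 and SERPINB13. They are 9 of the 27988 genes named in the deposited files, and they were taken by name, with levels summed over the annotated (reference) transcripts of each gene. The list was drawn up with results of the same comparison known, so the values below describe the genes and carry no test of their difference between groups. RNA sequencing of total RNA gave 3 libraries from cells transfected with 100 pmol of an siRNA against PSENEN and 3 libraries from cells transfected with a mismatch siRNA, the negative control, for which the labels give no dose. Both siRNAs went into the same cell line with a lipid reagent. PSENEN encodes a subunit of γ-secretase, a membrane protease that cleaves Notch receptors. The labels name 48 and 72 h as times of extraction without tying either to the sequenced RNA, and they do not say whether the libraries of a group came from separate cultures, so the spread between libraries may be partly technical. Libraries are numbered 1 to 3 within each group as in their titles, in the order in which values are given.

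A serpin offers the target protease a bait, the exposed reactive centre loop; when the loop is cut, the inhibitor snaps into a new shape and traps the protease in a covalent complex. Sequence in and around the loop sets which protease is caught. Clade B members lack a classical secretion signal and act largely in the cytoplasm and nucleus, and several are abundant in stratified epithelia such as epidermis, where they meet cathepsins, kallikreins and proteases of infiltrating leukocytes.

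Levels are in TPM, a transcript abundance scaled for transcript length and for the total of the library. Each log2 difference is the value in PSENEN siRNA cells minus that in mismatch siRNA cells on the log2(TPM + 1) scale, with its standard error from the fit to all genes. SERPINB1, SERPINB7 and SERPINB8 were lower in each PSENEN siRNA library than in any mismatch siRNA library. SERPINB5, the most abundant member, was at nearly the same level in both groups, SERPINB3, SERPINB4 and SERPINB6 overlapped between groups in TPM, and SERPINB9 had no transcript listed in any library. SERPINB13 was on opposite sides of the control depending on which of its transcripts were summed. The bulk values cannot tell fewer cells that express a gene from less RNA per cell.

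Of the 8 detected members, all of which had at least 1 TPM in every library, 7 had a negative log2 difference, against 54.6% of the 15647 genes tested. The median over the 8 was -0.44, against -0.04 over all genes tested. In 3 of the 8 each PSENEN siRNA library lay below each mismatch siRNA library, as in 13.7% of all genes tested, and in none did each lie above, as in 8.21%. By limma with Benjamini-Hochberg adjustment over all genes, 0 of the 8 were called at an adjusted p under 0.05, against 0.409% of all genes tested, and 3 had an unadjusted p under 0.05, against 13.0%. Since the list was chosen on this comparison, nothing is read from these counts. The number of negative members was 6 without mismatch siRNA library 3 and 8 without PSENEN siRNA library 2, with medians of -0.34 and -0.37. With assembled transcripts added, 8 of 8 were negative, against 56.4% of the 16362 genes tested that way, and by limma 0 were called, against 0.489%, with 3 at an unadjusted p under 0.05, against 14.4%. By the same measure 3 members had all PSENEN siRNA libraries below the controls, against 14.3% of genes, and 0 had all of them above, against 7.82%.

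**Figure D1:**
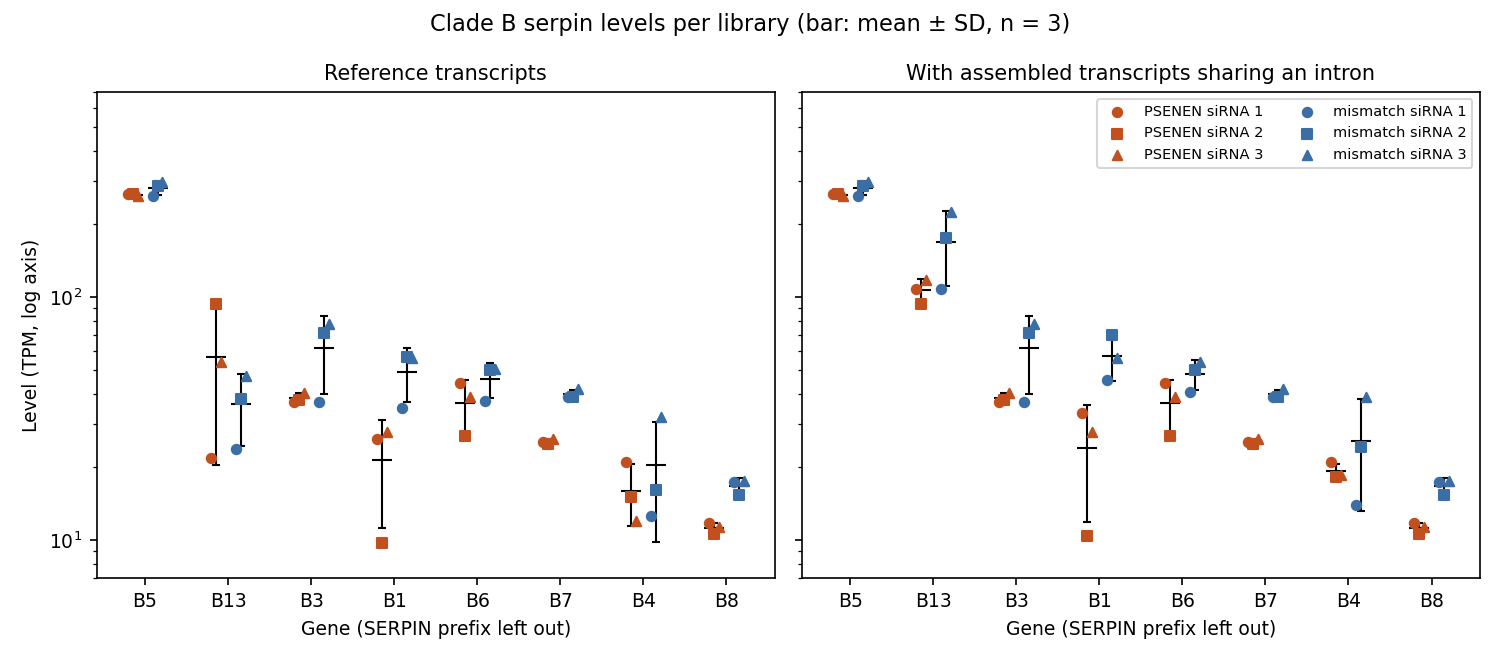
Level of each detected clade B serpin in each library (y axis, TPM, log axis), with PSENEN siRNA libraries in orange left of mismatch siRNA libraries in blue, and bars for the mean ± SD (n = 3). The left panel sums reference transcripts and the right panel adds assembled transcripts that share an intron with the gene; SERPINB13 moves most between the panels, and SERPINB5 stays at 262 to 297 TPM in both.

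SERPINB1, an inhibitor of the neutrophil proteases elastase, cathepsin G and proteinase 3, had the lowest value relative to control of all members. The gene lies at GRCh38 chromosome 6, 2832332 to 2842006, minus strand. It was at 26.2, 9.75 and 28.0 TPM in PSENEN siRNA libraries, against 35.0, 56.7 and 56.1 TPM in mismatch siRNA libraries. PSENEN siRNA library 2 was the low one of its group and mismatch siRNA library 1 was the lowest of the controls; the groups did not overlap. The means were 21.3 ± 10.04 TPM in PSENEN siRNA cells and 49.3 ± 12.3 TPM in mismatch siRNA cells (SD, n = 3 each), so that 43.2% of the control mean was left. The log2 difference was -1.27 with a standard error of 0.42, and it was -0.81 without PSENEN siRNA library 2. Transcript ENST00000380739 carried 95.7% of the gene's level, at 25.3, 6.65 and 27.4 TPM in PSENEN siRNA libraries and 32.7, 55.2 and 55.4 TPM in mismatch siRNA libraries. With assembled transcripts added, the difference was -1.35 and the groups again did not overlap.

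SERPINB6, which inhibits cathepsin G, thrombin and the epidermal kallikrein KLK8, lies on the same chromosome at 2948159 to 2972165, minus strand. It was at 44.2, 26.8 and 39.0 TPM in PSENEN siRNA libraries, against 37.4, 50.4 and 50.5 TPM in mismatch siRNA libraries. Again PSENEN siRNA library 2 and mismatch siRNA library 1 were the lowest of their groups, and here the groups overlapped, since PSENEN siRNA libraries 1 and 3 were above mismatch siRNA library 1. The log2 difference was -0.34 ± 0.22 (standard error), and -0.13 without PSENEN siRNA library 2. Its level was spread over 5 listed transcripts that differ in their start, and the leading one, ENST00000335686, held 44.2% of it. That transcript was at 22.2, 11.0 and 8.62 TPM in PSENEN siRNA libraries, against 17.5, 24.7 and 25.7 TPM in mismatch siRNA libraries. ENST00000380539 was at 8.31, 7.05 and 7.43 TPM in PSENEN siRNA libraries, inside the range of 3.94 to 8.99 TPM in mismatch siRNA libraries.

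SERPINB9, the inhibitor of granzyme B that protects cytotoxic lymphocytes from their own granules, also lies in the chromosome 6 cluster, at 2887266 to 2903280, minus strand. No transcript with its name was listed in any of the 6 libraries, so its level is given as listed at 0, with no fold. Inside the gene, mismatch siRNA library 2 held 1 assembled fragment of a single exon with no strand, at chromosome 6, 2901460 to 2901876, at 0.595 TPM, and it carries no reference name.

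SERPINB8, an inhibitor of the proprotein convertase furin whose loss causes skin peeling in humans, lies at GRCh38 chromosome 18, 63969925 to 64019779, plus strand. It was at 11.7, 10.6 and 11.3 TPM in PSENEN siRNA libraries, against 17.4, 15.3 and 17.5 TPM in mismatch siRNA libraries. The groups did not overlap, and the gap between them was wider than the spread within either. Means were 11.2 ± 0.572 TPM in PSENEN siRNA cells and 16.8 ± 1.27 TPM in mismatch siRNA cells (SD, n = 3 each), with 66.9% of the control mean left and a log2 difference of -0.54 ± 0.12 (standard error). ENST00000353706 held 88.4% of the level and also did not overlap, at 9.19 to 10.2 TPM in PSENEN siRNA libraries and 13.2 to 17.1 TPM in mismatch siRNA libraries. Part of the gene overlaps HMSD, which shares 5.78% of the 31-base words of SERPINB8 transcripts. FURIN itself was at 42.0, 38.8 and 39.9 TPM in PSENEN siRNA libraries, against 34.9, 34.7 and 27.8 TPM in mismatch siRNA libraries, a log2 difference of 0.31 (limma, adjusted p = 0.371; FURIN was picked here after its values were seen).

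SERPINB7, whose loss causes a palmoplantar keratoderma of the Nagashima type, lies at chromosome 18, 63752935 to 63805376, plus strand. It was at 25.4, 24.8 and 26.0 TPM in PSENEN siRNA libraries, against 38.8, 38.9 and 41.9 TPM in mismatch siRNA libraries. Libraries agreed within each group to a few TPM, and the groups lay far apart. Means were 25.4 ± 0.599 TPM in PSENEN siRNA cells and 39.9 ± 1.75 TPM in mismatch siRNA cells (SD, n = 3 each), which leaves 63.7% of the control mean. The log2 difference was -0.63 ± 0.09 (standard error). No stretch of 31 bases of its transcripts occurs in another annotated gene.

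Under that steady total, the split of SERPINB7 between transcripts moved from library to library. ENST00000398019, which starts at 63775410 and held 69.4% of the level, was at 21.6, 11.8 and 16.8 TPM in PSENEN siRNA libraries, against 26.9, 32.0 and 26.7 TPM in mismatch siRNA libraries, without overlap. ENST00000546027, which starts at 63777777, was at 3.20, 12.8 and 6.91 TPM in PSENEN siRNA libraries, against 11.8, 6.11 and 14.7 TPM in mismatch siRNA libraries. PSENEN siRNA library 2 was lowest for the first transcript and highest of its group for the second, so that the summed gene level varied less than either transcript.

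**Figure D2:**
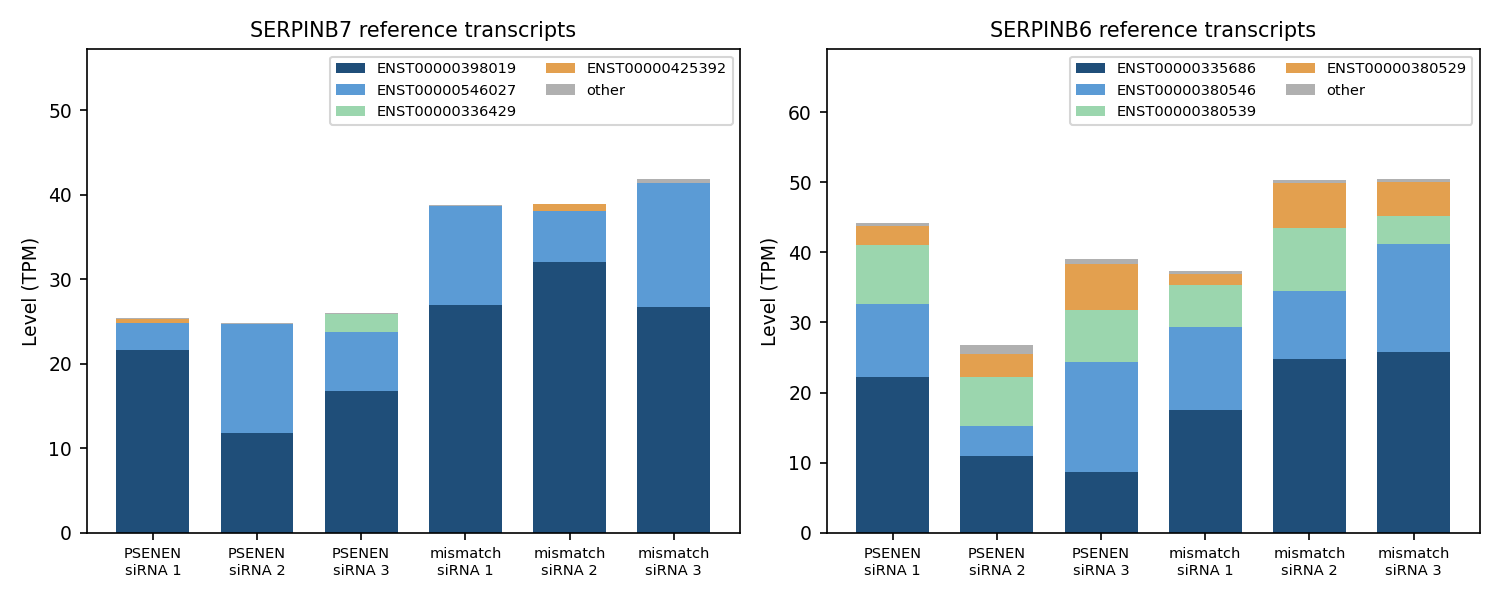
Stacked levels (y axis, TPM) of the reference transcripts of SERPINB7 (left) and SERPINB6 (right) in each library, PSENEN siRNA libraries first. The SERPINB7 stacks end at 24.8 to 26.0 TPM in PSENEN siRNA libraries and at 38.8 to 41.9 TPM in mismatch siRNA libraries although their parts differ, while the SERPINB6 stacks overlap.

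Promoters of all 9 members were matched in RefSeq (GRCh38.p14), as 14 windows of 250 bases before to 50 bases after a start site. The motif TGANTCA is looser than the site of AP-1 factors, which are active in keratinocytes, since that site has C or G at the open base. It reads the same on both strands and was found in 5 of the 14 windows (35.7%), against 7.71% of all 35116 windows. Those windows belong to SERPINB5, SERPINB7, SERPINB8 and SERPINB13, 4 of the 9 genes, against 9.37% of all genes with a window. The only match of SERPINB5 was TGAATCA, while the other genes each held a match with C or G at the open base. Windows with C or G there were not counted over all genes. TTCNNNGAA, the form bound by STAT factors, also searched on both strands, was in 3 of the 14 windows, against 7.66% of all. Overlap of the motifs with each other was not scored. A match is a run of letters and no evidence of binding. SERPINB5 and SERPINB13, whose groups overlapped, also held TGANTCA, and SERPINB1, whose groups did not overlap, held none. A link between the motif and the levels was not tested. The sites nearest to the starts of SERPINB7 and SERPINB8, the members on chromosome 18 whose groups did not overlap, are shown with 20 bases on each side and the motif in capitals; the SERPINB7 sites lie 39 and 45 bases before a RefSeq start and the SERPINB8 site 28 bases before one.
SERPINB7, chr18:63775359-63775405, plus strand: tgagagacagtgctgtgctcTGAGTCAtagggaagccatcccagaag
SERPINB7, chr18:63777716-63777762, plus strand: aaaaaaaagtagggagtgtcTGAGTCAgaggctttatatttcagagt
SERPINB8, chr18:63970033-63970079, plus strand: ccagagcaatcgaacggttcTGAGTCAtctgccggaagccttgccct

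SERPINB3 and SERPINB4, the squamous cell carcinoma antigens, are near-identical neighbours. SERPINB3 (chromosome 18, 63655197 to 63661963, minus strand) inhibits papain-like cysteine proteases such as cathepsins L, S and K, while SERPINB4 (63637259 to 63644298, minus strand) inhibits cathepsin G and mast cell chymase. Their coding sequences are 1173 bases each and are equal at 95.2% of positions, with 56 differences and a longest equal run of 129 bases. The stretch over the reactive centre loop, coding bases 1021 to 1095 in both, differs more, at 10 of 75 positions (86.7% equal). It is printed here in the coding direction from GENCODE 29, with the differing bases in capitals, since the loop is the part that meets the protease.
SERPINB3, chr18:63655735-63655809, minus strand: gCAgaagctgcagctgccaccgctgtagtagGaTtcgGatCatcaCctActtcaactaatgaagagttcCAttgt
SERPINB4, chr18:63637797-63637871, minus strand: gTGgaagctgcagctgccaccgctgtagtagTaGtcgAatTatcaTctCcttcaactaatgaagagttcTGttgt

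SERPINB3 was at 36.9, 37.8 and 40.4 TPM in PSENEN siRNA libraries, against 36.9, 71.2 and 77.7 TPM in mismatch siRNA libraries. The PSENEN siRNA libraries were close together, mismatch siRNA library 1 sat among them, and the other two controls were well above, so the groups overlapped. The log2 difference was -0.61 ± 0.28 (standard error), and -0.94 without mismatch siRNA library 1. SERPINB4 was at 20.9, 15.0 and 12.0 TPM in PSENEN siRNA libraries, against 12.6, 16.1 and 32.3 TPM in mismatch siRNA libraries. Here the spread within the control group exceeded the difference between groups, which was -0.25 ± 0.37 (standard error) and turned to 0.12 without mismatch siRNA library 3. Of the 31-base words of SERPINB3 transcripts, 38.9% also occur in SERPINB4, and of those of SERPINB4 33.9% occur in SERPINB3, so the division of reads between them is uncertain. Their sum rests less on that division, though not free of it, since TPM is scaled for the length of each transcript. Over reference transcripts it was 57.8, 52.8 and 52.5 TPM in PSENEN siRNA libraries and 49.6, 87.3 and 110 TPM in mismatch siRNA libraries. With assembled transcripts it was 57.8, 56.0 and 58.9 TPM in PSENEN siRNA libraries and 51.0, 95.3 and 117 TPM in mismatch siRNA libraries. The sum overlapped as well by both measures, through mismatch siRNA library 1.

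**Figure D3:**
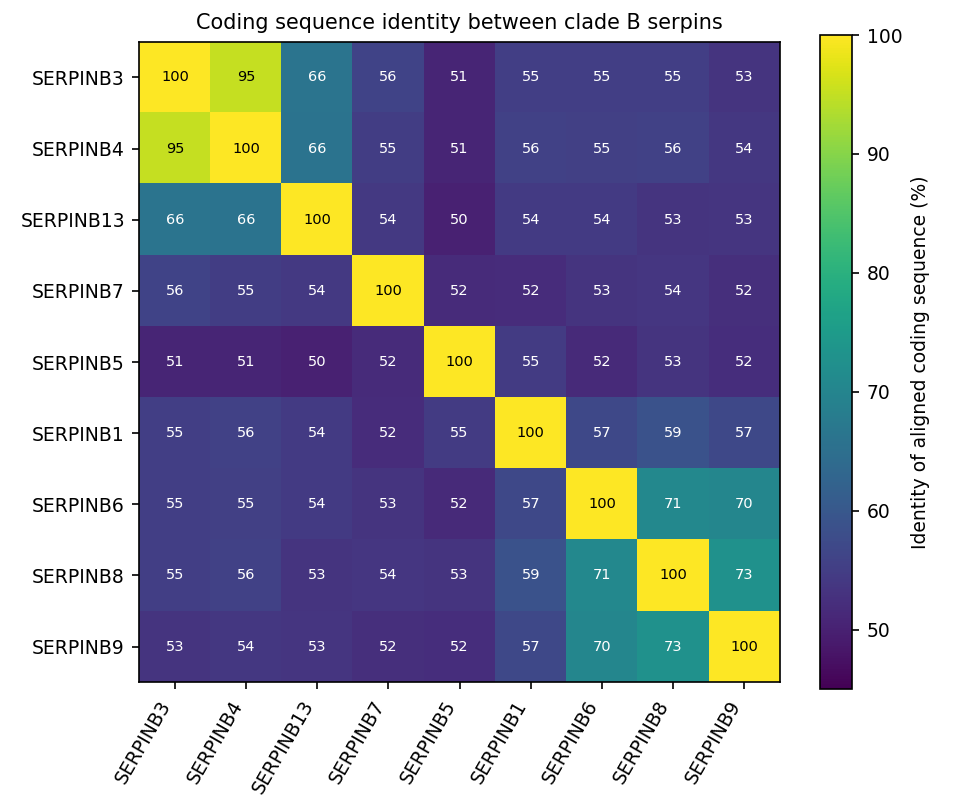
Identity of the aligned coding sequences, in percent, for each pair of the 9 members (both axes list genes), from the leading transcript of each or, for SERPINB9, which had none listed, its longest annotated coding sequence. SERPINB3 and SERPINB4 stand out at 95.2%, SERPINB6, SERPINB8 and SERPINB9 form a block at 70.3% to 72.8%, and SERPINB13 is closest to SERPINB3, at 66.1%.

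SERPINB13, an epidermal inhibitor of cathepsins L and K, lies between the others on chromosome 18, at 63586989 to 63604639, plus strand. Over reference transcripts it was at 21.8, 94.2 and 54.4 TPM in PSENEN siRNA libraries, against 23.7, 38.2 and 47.6 TPM in mismatch siRNA libraries. PSENEN siRNA library 2 was the highest of all 6 and library 1 the lowest, so the groups overlapped, with a log2 difference of 0.45 ± 0.54 (standard error). With assembled transcripts that share an intron added, the level was 108, 94.2 and 118 TPM in PSENEN siRNA libraries and 108, 176 and 224 TPM in mismatch siRNA libraries. Now mismatch siRNA libraries 2 and 3 were highest, mismatch siRNA library 1 sat among the PSENEN siRNA libraries, and the difference was -0.60 ± 0.26 (standard error).

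The reversal goes with how transcripts were named in each file. Reference transcripts held 20.1%, 100% and 46.0% of the summed SERPINB13 level in PSENEN siRNA libraries and 21.9%, 21.7% and 21.3% in mismatch siRNA libraries. Transcript ENST00000344731 was listed under its reference name in PSENEN siRNA libraries 2 and 3, at 58.3 and 22.3 TPM, and in no other library. In the remaining 4 libraries an assembled transcript with exactly the introns of ENST00000344731, but shorter ends (63587429 to 63598743) and no reference name, was listed instead, at 47.8 TPM in PSENEN siRNA library 1 and, in mismatch siRNA libraries 1 to 3, at 53.3, 91.6 and 99.4 TPM. The other main reference transcript, ENST00000269489, was named in each library, at 17.98, 33.2 and 27.6 TPM in PSENEN siRNA libraries, against 21.0, 32.7 and 40.1 TPM in mismatch siRNA libraries, with overlap. The reference-only value of SERPINB13 is therefore not comparable between libraries. The rest of the assembled level came from transcripts with merged exons or another structure.

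**Figure D4:**
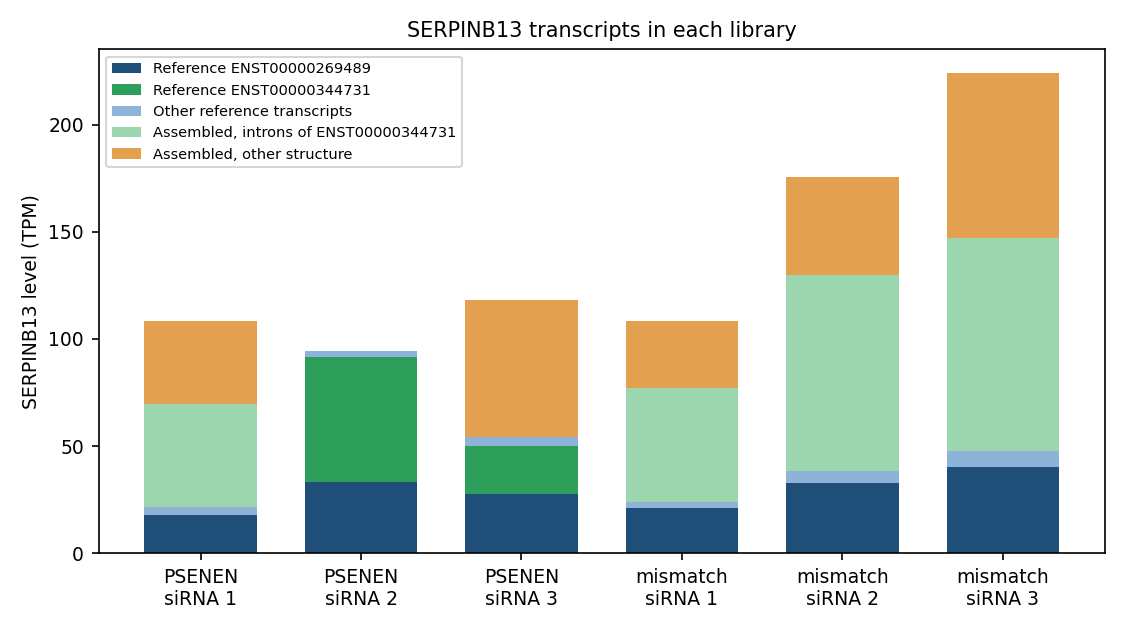
SERPINB13 level in each library (y axis, TPM), stacked by transcript, with PSENEN siRNA libraries first. Dark green marks ENST00000344731 listed under its reference name and light green an assembled transcript with the same introns; full stacks reach 94.2 to 118 TPM in PSENEN siRNA libraries and 108 to 224 TPM in mismatch siRNA libraries.

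ENST00000344731 and ENST00000269489 differ, apart from their outer ends, by the end of 1 exon, which starts at 63589656 and ends at 63589715 in the first and at 63589742 in the second. The 27 bases between these ends begin with GT; they are shown in capitals at their junction with the next exon, in the transcript direction from GENCODE 29 (first base 63589692, last base 63592371, with the intron removed), because they are what separates the forms.
SERPINB13, chromosome 18, plus strand: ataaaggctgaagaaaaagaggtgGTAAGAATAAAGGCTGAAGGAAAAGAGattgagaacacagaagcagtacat
Among transcripts that could be assigned to either end, the form that keeps the 27 bases took 43.2%, 36.1% and 28.5% of the level in PSENEN siRNA libraries and 49.5%, 41.5% and 49.1% in mismatch siRNA libraries. PSENEN siRNA libraries 2 and 3 were below all controls and library 1 was inside their range.

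SERPINB5, or maspin, a member that does not act as a protease inhibitor and was first studied as a tumour suppressor, lies at the edge of the cluster at chromosome 18, 63476761 to 63505085, plus strand. It was at 267, 265 and 262 TPM in PSENEN siRNA libraries, against 262, 288 and 297 TPM in mismatch siRNA libraries. The PSENEN siRNA libraries were almost equal, and mismatch siRNA library 1 was again at their level. The log2 difference was -0.09 ± 0.08 (standard error), and 98.0% of the level came from ENST00000382771.

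Per length, SERPINB5 stood above every other member in both groups, without overlap with the next, and supplied 56.3% ± 2.16 of the summed reference TPM of the 8 members in PSENEN siRNA cells and 51.5% ± 4.48 in mismatch siRNA cells (SD, n = 3 each). With assembled transcripts included, its share was 50.4% ± 3.39 in PSENEN siRNA cells and 40.9% ± 5.04 in mismatch siRNA cells (SD, n = 3 each), and the groups did not overlap. By that measure SERPINB13 came second, at a mean of 107 TPM in PSENEN siRNA cells and 169 TPM in mismatch siRNA cells, also apart from its neighbours in the order. SERPINB8 was last in both groups. In between, SERPINB3 and SERPINB6 overlapped in PSENEN siRNA cells, as did SERPINB7 with SERPINB1 and SERPINB1 with SERPINB4, while SERPINB6 and SERPINB7 were apart. In mismatch siRNA cells SERPINB3, SERPINB1, SERPINB6, SERPINB7 and SERPINB4 each overlapped with the next in that order, down to SERPINB8. Over reference transcripts the sum of the 8 was 454, 484 and 473 TPM in PSENEN siRNA libraries and 464, 575 and 621 TPM in mismatch siRNA libraries, with overlap. With assembled transcripts it was 547, 488 and 544 TPM in PSENEN siRNA libraries and 564, 734 and 808 TPM in mismatch siRNA libraries, without overlap.

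Mismatch siRNA library 1 was the lowest of its group for 7 of the 8 members and mismatch siRNA library 3 the highest for 7 of 8, both with and without assembled transcripts. In the PSENEN siRNA group no library held such a place over reference transcripts, where library 2 was lowest for 4 members. With assembled transcripts library 2 was lowest for 6 of 8 members and highest for 0. How often each library was lowest or highest over all genes tested was not counted, so these places may not be particular to the serpins. Estimated depth was 11.9, 11.3 and 9.16 gigabases in PSENEN siRNA libraries and 15.6, 13.7 and 11.5 gigabases in mismatch siRNA libraries, so the deepest control was the low one; its part in these values was not tested.

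**Figure D5:**
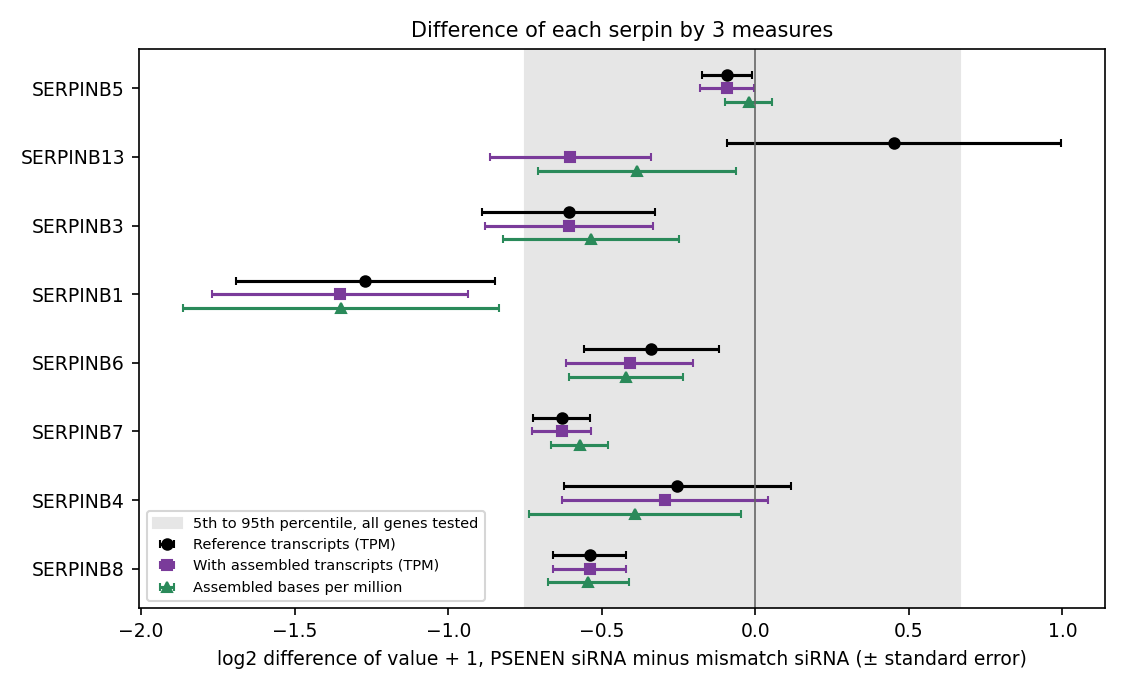
Log2 difference of each detected member, PSENEN siRNA minus mismatch siRNA (x axis, ± standard error), by 3 measures: TPM over reference transcripts, TPM with assembled transcripts, and assembled bases, coverage times length as a share of the library's total, the last chosen after seeing the data. The grey band holds the central range of all genes tested over reference transcripts (5th to 95th percentile, -0.75 to 0.67); SERPINB1 lies outside it by each measure, and SERPINB13 is at 0.45, -0.60 and -0.38.

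PSENEN, the target of the siRNA, on chromosome 19 at 35745114 to 35747519 (plus strand), had levels of 1.75, 2.08 and 1.496 TPM in PSENEN siRNA libraries, against 6.58, 8.85 and 6.55 TPM in mismatch siRNA libraries, which leaves 24.2% of the control mean (log2 difference -1.58, limma adjusted p = 0.0471). The adjusted p was 0.110 to 0.155 when a library was left out, 0.0542 with a pseudocount of 0.1, 0.0725 with no filter on low values and 0.0544 with a minimum of 5 TPM. Of the 31-base words of PSENEN transcripts, 50.05% are also found in another gene. All 8 keratinocyte markers were at 1 TPM or more in each library, with sums of 3227 to 4000 TPM in PSENEN siRNA libraries and 3384 to 7662 TPM in mismatch siRNA libraries. Leukocyte markers, which matter because leukocytes also make SERPINB1, SERPINB6 and SERPINB9, summed to 9.61 to 12.2 TPM in PSENEN siRNA libraries and 13.5 to 19.1 TPM in mismatch siRNA libraries over 2 of 5 genes, and the defining PTPRC, CD3E and LYZ were at 0 in all libraries; the part of the other two, CD14 and CD74, in the SERPINB1 values was not tested. Melanocyte markers (1 of 4 listed), fibroblast markers (2 of 5) and endothelial markers (2 of 4) summed to at most 0.229, 0.927 and 0.324 TPM in PSENEN siRNA libraries and at most 0.545, 1.47 and 0.230 TPM in mismatch siRNA libraries. The word TGGTTCT, a possible seed match of the siRNA, was searched in the 3′ UTRs of all annotated coding transcripts of each gene. It was in SERPINB6 alone among the 9 members, against 21.0% of 10680 tested protein-coding genes. Whether it lies in the leading transcript of SERPINB6 was not scored.

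The other genes of the system came from lists by function or position. Of the 4 other clade B serpins, 1 was tested. SERPINB2, the intracellular inhibitor of urokinase and tissue plasminogen activator, was at 21.5, 12.7 and 24.2 TPM in PSENEN siRNA libraries, against 27.2, 29.2 and 39.1 TPM in mismatch siRNA libraries. Its groups did not overlap, and its log2 difference of -0.71 did not pass the test (limma, adjusted p = 0.348). SERPINB11 and SERPINB12 were listed at 0 in each library, and SERPINB10 reached at most 1.61 TPM.

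Among the 21 proteases that clade B serpins are known to inhibit, 10 were tested, 1 fell and 0 rose by limma (3 had an unadjusted p under 0.05), with 8 negative and 2 positive differences and a median of -0.21. Over all genes tested, limma called 0.409%, 13.0% had an unadjusted p under 0.05 and 54.6% were negative. Nothing is read from the counts of the list. The one that fell was PLAU, which encodes urokinase, a target of SERPINB2: it was at 53.4, 58.7 and 50.6 TPM in PSENEN siRNA libraries, against 129, 132 and 116 TPM in mismatch siRNA libraries (log2 difference -1.20 ± 0.10 standard error, limma adjusted p = 0.0221). The adjusted p was 0.0804 to 0.103 when any one library was left out, and its transcripts share 24.1% of their 31-base words with the gene C10orf55. PLAT, which encodes tissue plasminogen activator and was picked here after its values were seen, was at 6.84, 9.51 and 5.96 TPM in PSENEN siRNA libraries, against 12.5, 25.9 and 24.8 TPM in mismatch siRNA libraries. Its groups did not overlap, and its log2 difference of -1.34 did not pass the test (limma, adjusted p = 0.157). The granzymes, CTSG, ELANE, PRTN3 and CMA1, targets of SERPINB1, SERPINB4, SERPINB6 and SERPINB9 that leukocytes make, were listed at 0 in each library.

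Of 21 serpins of other clades, 3 were tested and 0 were called (2 lower and 1 higher in value, 1 with an unadjusted p under 0.05). By the same limma fit 13.0% of all genes tested had an unadjusted p under 0.05, and 54.6% were lower in value. The most abundant was the collagen chaperone SERPINH1, at 106, 64.1 and 66.0 TPM in PSENEN siRNA libraries and 31.3, 58.4 and 66.0 TPM in mismatch siRNA libraries (0.62, limma adjusted p = 0.488). Its difference was -0.17 with assembled transcripts and 0.16 by assembled bases. SERPINE2, which inhibits thrombin and urokinase, was at 14.1, 12.2 and 16.2 TPM in PSENEN siRNA libraries and 17.0, 14.6 and 14.1 TPM in mismatch siRNA libraries (-0.10, limma adjusted p = 0.795).

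Of 8 transcription factors linked to squamous serpin genes, all were tested and 0 were called (2 had an unadjusted p under 0.05), with 5 negative and 3 positive differences and a median of -0.09. Among all genes tested, 13.0% had an unadjusted p under 0.05 by limma and 54.6% were negative. STAT6, which relays interleukin signals, was at a mean of 101 TPM in PSENEN siRNA cells and 92.7 TPM in mismatch siRNA cells (0.14, limma adjusted p = 0.668), and its difference was -0.23 with assembled transcripts. The pair with an unadjusted p under 0.05, named here after their values were seen, were TP63 and ETS1, and neither passed the test. TP63, a master regulator of squamous epithelium, was at 56.9, 61.3 and 57.7 TPM in PSENEN siRNA libraries, against 76.8, 82.0 and 78.9 TPM in mismatch siRNA libraries (log2 difference -0.43, limma adjusted p = 0.123). ETS1 was at 16.3, 17.3 and 15.4 TPM in PSENEN siRNA libraries, against 24.2, 21.6 and 19.5 TPM in mismatch siRNA libraries (log2 difference -0.39, limma adjusted p = 0.283). The groups of both genes did not overlap.

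The genes around each serpin cluster were also followed, beside shares over all genes tested of 13.0% at an unadjusted limma p under 0.05 and 54.6% lower in value. Of 11 neighbours on chromosome 18, 7 were tested and 0 called (2 at an unadjusted p under 0.05), 3 lower and 4 higher in value, with a median of 0.03. Those 2, named here after their values were seen, went opposite ways without overlap between groups, and neither passed the test. RELCH had a log2 difference of -0.84 (limma adjusted p = 0.363) and KDSR one of 0.62 (limma adjusted p = 0.360). VPS4B, which lies near SERPINB5, was at 52.6, 54.7 and 53.7 TPM in PSENEN siRNA libraries and 53.4, 54.4 and 55.6 TPM in mismatch siRNA libraries (-0.02, limma adjusted p = 0.943), and PHLPP1 was at a mean of 16.8 TPM in PSENEN siRNA cells and 14.1 TPM in mismatch siRNA cells (0.25, limma adjusted p = 0.457). Of 17 neighbours on chromosome 6, 14 were tested and 0 called (0 at an unadjusted p under 0.05), 10 lower and 4 higher in value, with a median of -0.13. FOXQ1 was at 41.7 TPM in PSENEN siRNA cells and 42.2 TPM in mismatch siRNA cells (-0.02, limma adjusted p = 0.968), and WRNIP1 at 22.0 TPM in PSENEN siRNA cells and 20.8 TPM in mismatch siRNA cells (0.08, limma adjusted p = 0.787).

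For the members with the most negative and the most positive fitted difference, the genes with the most similar profile over the 6 libraries were sought among 9286 genes, by the root mean square difference of centred log2(TPM + 1) values. MAPK9, RBM12B and HIST2H3C were closest to SERPINB1, at 0.23, 0.24 and 0.25. MAPK9, for example, was at 10.5, 4.15 and 13.1 TPM in PSENEN siRNA libraries and 12.9, 19.0 and 17.0 TPM in mismatch siRNA libraries, with the same low PSENEN siRNA library 2. CCNG2, TTC8 and UFC1 were closest to SERPINB13 over reference transcripts, at 0.26, 0.29 and 0.29, a likeness to a profile that depends on transcript naming.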

How the data were processed

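The deposited files are 1 StringTie assembly per library, per the file headers and lines, and hold TPM, FPKM and coverage for each transcript as other attributes that the authors deposited, with no counts. The labels' processing notes name Bowtie 0.12.2 and mouse builds, which do not match these human files; which aligner, StringTie options, strand setting and read length were used is not given in the sources used here. Of 92476 reference transcripts named, 98.1% had the position given in GENCODE 29 on GRCh38. Transcripts without a reference name were added, as an alternative, where they share an intron with 1 gene. TPM sums were 886394 to 909066 per library and were left as deposited. Depth was estimated as coverage per FPKM (exact two-sided permutation p = 0.2 between groups; 3 against 3 libraries allow no p under 0.1), and no counting intervals can be given.

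limma 3.58.1 (R 4.3.3, intensity trend, group as the only term, 4 residual degrees of freedom) was fitted to log2(TPM + 1) for the 15647 genes that reached 1 TPM in 3 or more libraries, with Benjamini-Hochberg adjustment over all of them and a threshold of 0.05. The step was tested on simulated data. A log2 difference of TPM + 1 understates the change of low genes. The members, lists and tests were chosen with earlier results of these data known. Named genes were the members, PSENEN, called list members (at most 3) or else the 2 most abundant of a list, and the 3 most similar profiles; 1 gene that this rule names is not reported here. Coding sequences were aligned with Biopython 1.88 (match 1, mismatch -1, gap opening -5, gap extension -1). Shared sequence was measured as the percent of 31-base words, over the annotated transcripts of a gene, that another gene also holds. Parsing and figures used Python 3.11.15, pandas 2.3.3, NumPy 2.4.6, SciPy 1.17.1 and matplotlib 3.10.9.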

Additional observations from a re-analysis of the deposited data

How the results depend on the processing

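Over all genes, 64 were called (20 higher, 44 lower in PSENEN siRNA cells), against 28 with a pseudocount of 0.1, 135 by assembled bases scaled to the library total (chosen after seeing the data) and 7 to 16 when a library was left out. The split depended on the libraries and the scaling. It was 2 higher and 14 lower, 3 and 4, and 3 and 11 without PSENEN siRNA replicates 1, 2 and 3, but 7 higher and 3 lower, 9 and 4, and 7 and 2 without mismatch siRNA replicates 1, 2 and 3. Median-of-ratios scaling called 21 higher and 28 lower, and quantile normalization 17 higher and 28 lower, with fewer lower calls than the 44. Of the fixed lists, 1 gene was called (PLAU), and 0 to 0 when a library was left out. With the replicate number as a block (replicate block), 1 gene was called over all genes and 0 in the lists, and PSENEN had an adjusted p of 0.306. Deviations of same-numbered libraries from their group means correlated at -0.049, 6.5e-05 and -0.014 for replicates 1, 2 and 3. Such correlations cannot show whether same-numbered libraries were handled as pairs. Which of the fits describes the design better was not tested.

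Each of SERPINB1, SERPINB3, SERPINB5, SERPINB6, SERPINB7 and SERPINB8 stayed negative under the 12 or 13 of 17 alternatives that changed their value at all (filters, the trend and the block leave these differences as they are), with ranges of -1.52 to -0.81, -0.94 to -0.41, -0.14 to -0.02, -0.48 to -0.13, -0.65 to -0.53 and -0.60 to -0.42. SERPINB4 ranged from -0.52 to 0.12, and SERPINB13 from -0.60 with assembled transcripts, through -0.38 by assembled bases and -0.024 without PSENEN siRNA replicate 2, to 1.01 without PSENEN siRNA replicate 1. Other named genes changed sign too, SERPINH1 from a main value of 0.62 and the rest from values nearer 0, and the cause was not tested. By FPKM, FOXQ1 and VPS4B were at 0.051 and 0.051. By median-of-ratios scaling they were at 0.023 and 0.022, and by quantile normalization at 0.042 and 0.047. With assembled transcripts SERPINH1 was at -0.17 and STAT6 at -0.23. By assembled bases FOXQ1, SERPINE2, STAT6 and VPS4B were at 0.059, 0.057, -0.011 and 0.052. With a library left out, FOXQ1 ranged from -0.13 to 0.066.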
